A study of Caenorhabditis elegans with 12 samples.

Results

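The 7 fatty acid desaturase genes of Caenorhabditis elegans, fat-1 to fat-7, were followed through 12 whole-animal RNA libraries. They were taken by gene name, and all 7 were present among the 12595 genes of the expression matrix. Wild type (WT) was the strain N2, and GSC(−) animals, which lack germline stem cells, were glp-1(bn18ts) mutants, called glp-1(ts) here. This temperature-sensitive allele impairs the GLP-1/Notch receptor that keeps germline stem cells dividing. Both strains were raised at 25 °C on bacteria that carried either the empty L4440 vector or a skn-1 RNAi clone, and were collected as day 1 adults, with 3 biological replicates in each of the 4 groups. SKN-1 is a transcription factor known for stress defence, and the study asked which genes respond to the absence of germline stem cells and which of these responses need skn-1. WT adults still held a germline and eggs, which glp-1(ts) adults mostly lack, and feeding RNAi lowers skn-1 only in part. Each library came from a pool of many animals, so the spread between libraries is a spread between pools.

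Desaturases are membrane enzymes that place a double bond at a set position of a fatty acyl chain. The Δ9 enzymes FAT-5, FAT-6 and FAT-7 make monounsaturated from saturated fatty acids: FAT-5 prefers palmitoyl-CoA, and FAT-6 and FAT-7 use stearoyl-CoA to make oleic acid. FAT-2 (Δ12) turns oleic into linoleic acid, FAT-1 turns omega-6 into omega-3 fatty acids, and FAT-3 (Δ6) and FAT-4 (Δ5) lead on to arachidonic and eicosapentaenoic acid. These genes are known to be active mainly in the intestine and the hypodermis, and oleic acid made by the Δ9 enzymes is known to matter for the long life of worms without germline stem cells.

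On the WBcel235 assembly, 5 of the 7 genes lie on chromosome IV. fat-4 (IV:9799429-9802226, plus strand) ends 796 bp before fat-3 (IV:9803023-9806119, plus strand) begins, and fat-1 (IV:13315644-13318811, plus strand) ends 5061 bp before fat-2 (IV:13323873-13326395, plus strand). fat-6 (IV:11913692-11915687) lies on the minus strand. fat-5 (V:17725004-17726818, plus strand) and fat-7 (V:7151353-7153146, minus strand) are on chromosome V. All are protein-coding, and reads were summed over their exons. fat-5 alone overlapped other genes, the potassium channel gene twk-42 and a noncoding RNA, both on the opposite strand. fat-6 and fat-7 are close paralogs, and how reads that fit both were counted is not given in the sources used here, so the split between them is uncertain.

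Values were read counts scaled to library size (CPM, reads of a gene per 1e+06 reads) on a log2 scale, made comparable by the authors with quantile normalization, which gives every library the same set of values. Library depth is therefore unknown, and no counting interval can be given. The labels were checked first on the targeted genes. glp-1 mRNA was lower in glp-1(ts) on vector by a log2 fold change of −2.12 (SE 0.20, limma, Benjamini-Hochberg adjusted p = 5.53e-07). All 14 germline markers fell, and their median log2 fold change was −3.22. skn-1 mRNA fell in WT on skn-1 RNAi, by 1.67 on the log2 scale (SE 0.21, limma, Benjamini-Hochberg adjusted p = 0.00782), though without WT vector library 1 the adjusted p was 0.0579. With the skn-1 RNAi label in glp-1(ts), skn-1 stood at 5.73, 6.60 and 6.08 log2 CPM, against 6.07, 6.17 and 6.23 on vector, a log2 difference of −0.02 (95% interval −0.47 to 0.44). These libraries go against their label at the mRNA level, and each result that rests on them is given under that label only.

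Without germline stem cells, 6 of the 7 desaturase genes were higher on vector food, and fat-7 did not pass the test. fat-5 rose most, 14.6-fold, followed by fat-3 at 4.37-fold and fat-6 at 3.10-fold. fat-2 and fat-4 rose 1.91-fold and 1.89-fold, and fat-1 rose 1.56-fold. Of all genes, 77.4% were called in either direction and 39.4% were called higher at an adjusted p under 0.05, so a call alone does not set the desaturases apart. For the same 6 members no WT library reached the lowest glp-1(ts) library, a pattern that 41.4% of all genes showed. The median log2 fold change was 0.94 over the 7 members and 0.27 over all genes. In whole animals, fewer cells of a type and less RNA per cell cannot be told apart, and here the strains also differ in how much germline they hold. The paper reports that mRNAs specific to somatic tissues were enriched in GSC(−) samples by about what the share of germline nuclei predicts. For that reason it set a fold-change cutoff, which lies between the values of fat-3 and fat-6 here. The calls in this report apply no such cutoff. The plot of levels by library shows the shifts for each gene.

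**Figure D1:**
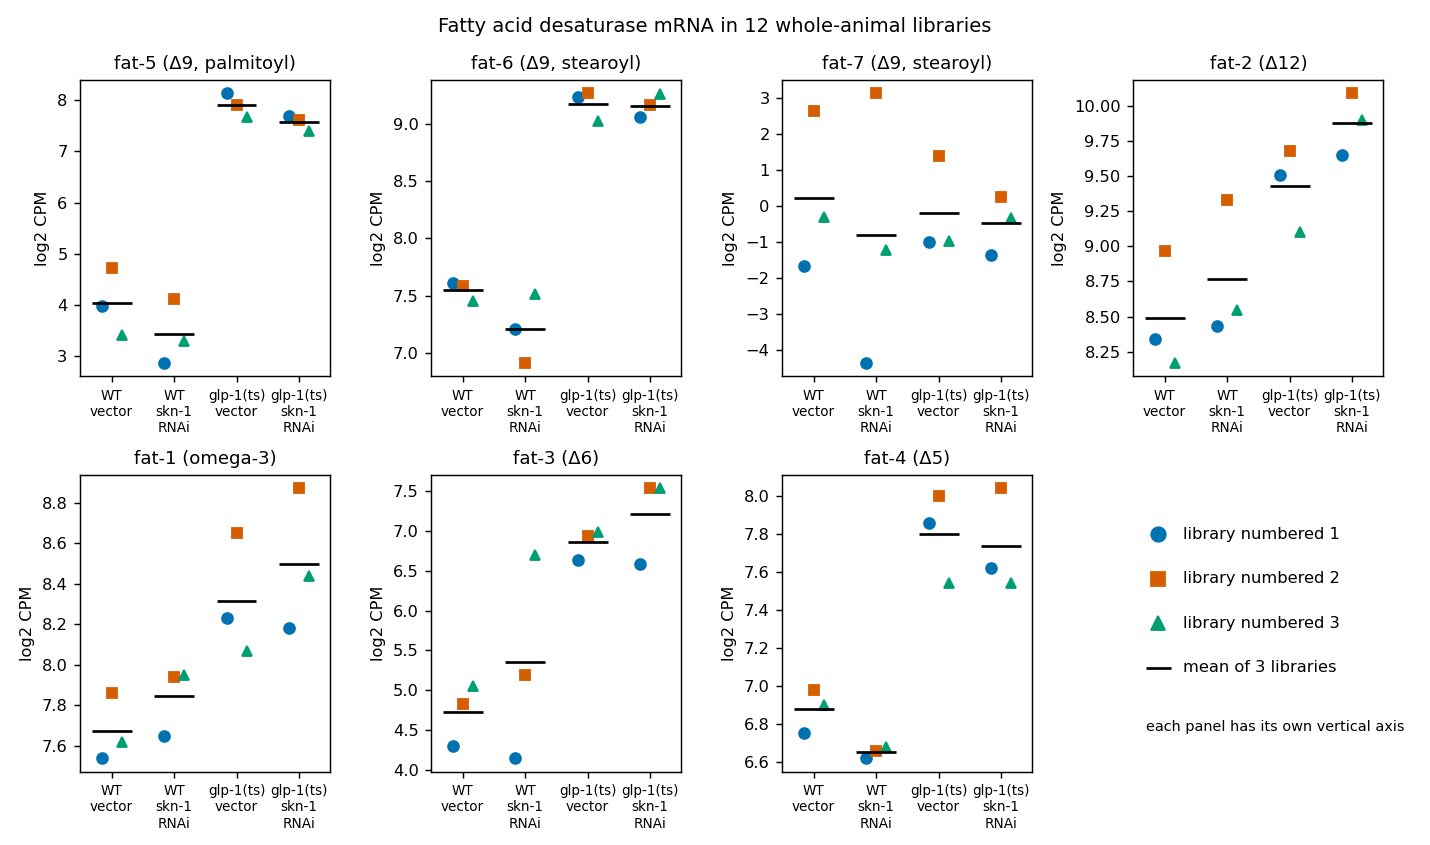
Level of each desaturase mRNA (vertical axis, log2 CPM, a separate scale in each panel) in the 12 libraries, ordered by group; symbols give the library number and bars the mean of 3 libraries. For fat-1 to fat-6 every glp-1(ts) library on vector lies above every WT library on vector, while fat-7 stands at 1 CPM (0 on this scale) or above only in the 4 libraries numbered 2.

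fat-5, the palmitoyl-CoA desaturase, was at 15.7, 26.4 and 10.6 CPM in the WT libraries on vector and at 281, 239 and 205 CPM in glp-1(ts). The groups lay far apart. Its log2 fold change was 3.87 (95% interval 3.19 to 4.55, limma, Benjamini-Hochberg adjusted p = 1.80e-07), and 36 of the 12595 genes had a larger one. With skn-1 RNAi it was at 7.26, 17.4 and 9.76 CPM in WT and at 207, 196 and 170 CPM in glp-1(ts), a 17.8-fold difference (limma, Benjamini-Hochberg adjusted p = 5.63e-08). The opposite-strand gene twk-42 also rose on vector, from a mean of 2.49 to 9.29 CPM, levels well below those of fat-5. Strand use in the counting is not given in the sources used here, and the part of shared reads was not tested.

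fat-6, the main stearoyl-CoA desaturase by level, was at 196, 191 and 175 CPM in WT on vector and at 605, 619 and 521 CPM in glp-1(ts). No library of one strain reached the range of the other. The log2 fold change was 1.63 (95% interval 1.33 to 1.94, limma, Benjamini-Hochberg adjusted p = 2.62e-07). Fed skn-1 RNAi, WT gave 148, 120 and 183 CPM and glp-1(ts) 532, 574 and 612 CPM, a 3.87-fold difference (limma, Benjamini-Hochberg adjusted p = 3.77e-08).

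fat-7, the paralog of fat-6, stood near the floor of detection. On vector it was at 0.318, 6.26 and 0.810 CPM in WT and at 0.498, 2.66 and 0.515 CPM in glp-1(ts). Under skn-1 RNAi it was at 0.0492, 8.82 and 0.433 CPM in WT, where the first value is the lowest in the whole matrix, and at 0.394, 1.21 and 0.802 CPM in glp-1(ts). The strains overlapped on both foods. The log2 fold change between strains was −0.41 on vector (95% interval −3.63 to 2.80, limma, Benjamini-Hochberg adjusted p = 0.803) and 0.34 on skn-1 RNAi food (95% interval −2.88 to 3.56). Intervals this wide leave a rise as large as that of fat-6 possible, so a difference in fat-7 was not detectable here.

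Among the enzymes that act on oleic acid and its products, fat-2, the Δ12 desaturase, was at 323, 502 and 288 CPM in WT on vector and at 728, 818 and 550 CPM in glp-1(ts). The groups did not overlap, but the highest WT and the lowest glp-1(ts) library were close. Its log2 fold change was 0.94 (SE 0.25, limma, Benjamini-Hochberg adjusted p = 0.00362). It reached 802, 1093 and 957 CPM in glp-1(ts) on skn-1 RNAi food, against 344, 645 and 375 CPM in WT, a log2 fold change of 1.11 (SE 0.25, limma, Benjamini-Hochberg adjusted p = 0.000996).

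fat-1, the omega-3 desaturase, was at 186, 232 and 196 CPM in WT on vector and at 299, 400 and 269 CPM in glp-1(ts). All 3 glp-1(ts) libraries were the higher ones. The log2 fold change was 0.64 on vector (SE 0.18, limma, Benjamini-Hochberg adjusted p = 0.00560) and 0.65 on skn-1 RNAi food (SE 0.18, limma, Benjamini-Hochberg adjusted p = 0.00480). Levels on the latter food were 200, 245 and 247 CPM in WT and 291, 467 and 348 CPM in glp-1(ts).

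fat-3, the Δ6 desaturase at the entry to the longer polyunsaturated fatty acids, was at 19.7, 28.4 and 33.4 CPM in WT on vector and at 99.3, 123 and 127 CPM in glp-1(ts). The groups were well apart on vector, with a log2 fold change of 2.13 (SE 0.47, limma, Benjamini-Hochberg adjusted p = 0.000905). With skn-1 RNAi, glp-1(ts) stood at 6.58, 7.53 and 7.53 log2 CPM, and WT at 4.15, 5.19 and 6.70 log2 CPM. The third WT library thus lay above the lowest glp-1(ts) library, and the log2 fold change was 1.86 (SE 0.47, limma, Benjamini-Hochberg adjusted p = 0.00228). It was 2.54 without that WT library and 1.27 without WT library 1 of the same food. The third WT library on skn-1 RNAi also had the highest mean of the intestine markers of all WT libraries (5.52 log2 CPM) and the lowest mean of the germline markers (7.34 log2 CPM), whose part in its fat-3 level was not tested.

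fat-4, the Δ5 desaturase encoded just upstream of fat-3, was at 108, 126 and 120 CPM in WT on vector and at 232, 256 and 186 CPM in glp-1(ts). WT values were tight and all glp-1(ts) values were higher. The log2 fold change was 0.92 on vector (SE 0.15, limma, Benjamini-Hochberg adjusted p = 6.06e-05) and 1.08 on skn-1 RNAi food (SE 0.15, limma, Benjamini-Hochberg adjusted p = 1.17e-05). The 2 neighbouring genes did not keep a fixed ratio. fat-3 was below fat-4 by 1.84 to 2.45 on the log2 scale in WT on vector, and by 0.54 to 1.23 in glp-1(ts) on vector. With skn-1 RNAi the strains overlapped in this log2 difference, which was −2.46 to 0.02 across the WT libraries and −1.04 to −0.01 across those of glp-1(ts).

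**Figure D2:**
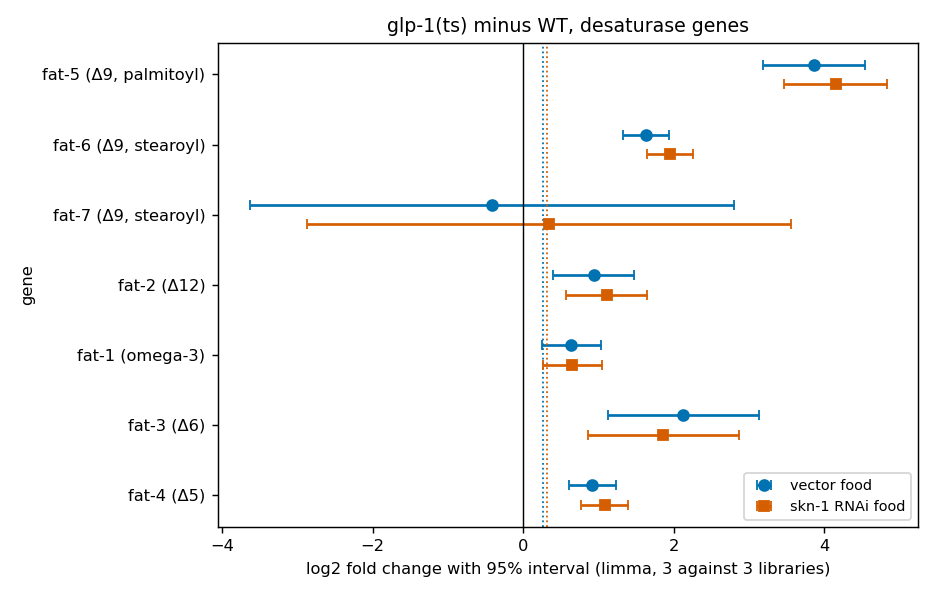
Log2 fold change of glp-1(ts) against WT (horizontal axis) for each desaturase gene on vector food (circles) and skn-1 RNAi food (squares), with 95% intervals from limma; dotted lines mark the median of all genes, 0.27 on vector and 0.32 on skn-1 RNAi food. On both foods fat-5 lies farthest to the right, at 3.87 and 4.15, and the interval of fat-7 covers 0.

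On skn-1 RNAi food, too, 6 of 7 members were called higher in glp-1(ts), against 41.7% of all genes. All of these except fat-3 had groups that did not overlap, as 42.2% of all genes did. The median log2 fold change was 1.11 for the members and 0.32 for all genes. The comparisons on the 2 foods share no library. They are not independent, because same-numbered libraries pair across the foods and the fit uses the same estimate of spread for both.

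Together the 7 mRNAs made up 824 to 1113 CPM in WT on vector (mean 928 ± 160, SD, n = 3) and 1858 to 2458 CPM in glp-1(ts) (mean 2187 ± 304, SD, n = 3), a 2.36-fold difference. With skn-1 RNAi the means were 1004 ± 181 CPM in WT and 2454 ± 327 CPM in glp-1(ts) (SD, n = 3 each). fat-2 accounts for the largest part of each sum. Without fat-2 the ratio on vector was 2.67.

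Levels of different genes were compared as log2 CPM per kb of exon. In WT on vector fat-2 was highest, at 7.84 to 8.64. fat-6 (7.23 to 7.39) and fat-1 (7.04 to 7.36) came next and overlapped each other. fat-4 followed at 6.13 to 6.36, and below it fat-3 (3.73 to 4.49) and fat-5 (3.27 to 4.58) could not be ordered beyond their spread. In glp-1(ts) on vector fat-2 (8.78 to 9.35) and fat-6 (8.80 to 9.05) overlapped at the top, and fat-5 (7.53 to 7.99) had moved up to overlap fat-1 (7.57 to 8.14). fat-4 (6.91 to 7.38) and fat-3 (6.06 to 6.42) followed. fat-7 was the lowest member in every group by its mean.

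The make-up of the Δ9 group thus differed between strains. Per kb of exon, fat-5 gave 6.01% to 12.4% of the summed fat-5, fat-6 and fat-7 level in WT on vector and 28.9% to 32.9% in glp-1(ts). With skn-1 RNAi it gave 4.94% to 12.4% in WT and 22.6% to 29.1% in glp-1(ts). Ranges of the strains did not overlap on either food. The palmitoyl-CoA enzyme was a minor Δ9 transcript in WT and the smaller of 2 substantial ones in glp-1(ts). The 3 Δ9 genes together gave 22.5% to 27.9% of all desaturase level per kb in WT on vector and 38.8% to 43.4% in glp-1(ts). These shares are given as descriptions, with no test.

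**Figure D3:**
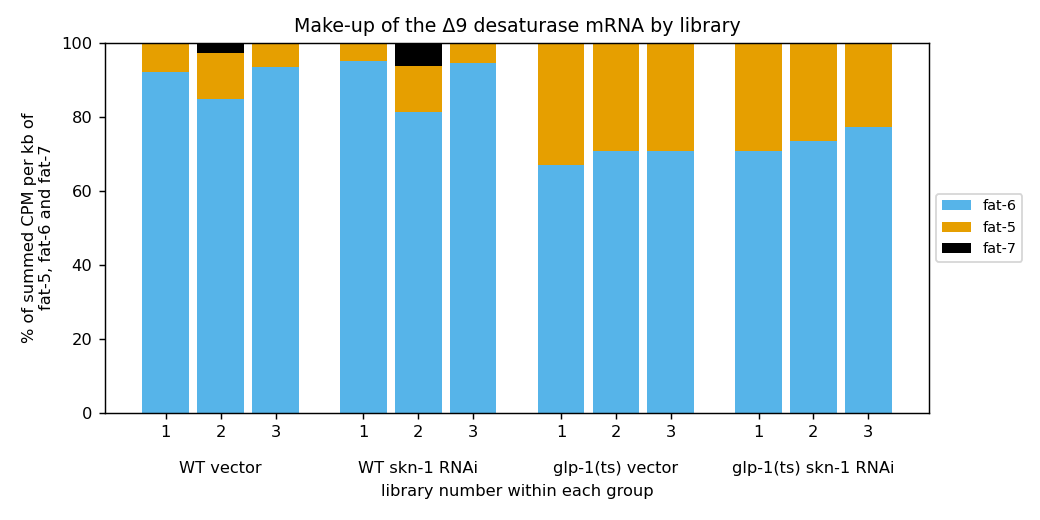
Share of fat-6, fat-5 and fat-7 in their summed CPM per kb of exon (vertical axis, percent) in each library, grouped by strain and food. fat-5 holds 28.9% to 32.9% in the glp-1(ts) libraries on vector and at most 12.4% in any WT library, and fat-7 is visible only in the WT libraries numbered 2.

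Tissue markers also changed between the strains, and not all in the direction of the desaturases. All 10 intestine markers rose in glp-1(ts) on vector, the median log2 fold change being 1.75, and the mean of the list was 4.81 to 5.30 log2 CPM in the WT libraries and 6.80 to 6.88 in glp-1(ts). All 10 rose on skn-1 RNAi food as well (median 1.96). Of the 10 muscle markers 9 rose on vector (median 1.44), of the 10 neuronal markers 8 rose (median 1.61), and of the 10 hypodermis markers 4 rose and 5 fell (median −0.96). The median intestine marker thus rose by more than every desaturase gene except fat-3 and fat-5. As an alternative chosen after seeing the data, each library was centred on its intestine markers. On that scale, which moved the median of all genes on vector from 0.27 to −1.54, fat-5 stayed higher in glp-1(ts), by 2.06 on the log2 scale on vector (limma, Benjamini-Hochberg adjusted p = 5.00e-05) and by 2.22 on skn-1 RNAi food. fat-1 (−1.17), fat-2 (−0.88) and fat-4 (−0.89) were called lower on vector, while fat-6 (−0.18) and fat-3 (0.32) were not called. Of all 12595 genes, 7795 were called lower and 269 higher in that comparison, so a lower call does not set these members apart. Thus the direction of fat-1, fat-2 and fat-4 depends on the reference, and fat-5 alone was called higher both as deposited and centred on intestine markers. A centring on the hypodermis markers was also chosen after seeing the data. On vector it left fat-1 (0.88), fat-2 (1.18), fat-3 (2.37), fat-4 (1.16), fat-5 (4.11) and fat-6 (1.88) called higher, as were 5396 of all 12595 genes. The hypodermis list is an uneven reference, since its genes moved both ways and 2 of them were near the floor. Of these, rol-6 reached 1 CPM in 6 of the 12 libraries and che-14 in 3. With this centring the same members were called higher on skn-1 RNAi food, as were 6052 of all genes. Centred on the muscle markers, fat-5 alone (2.64) was called on vector, where 1360 of all genes were called higher and 6576 lower. The part of the tissue make-up in these values was not tested.

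In WT, skn-1 RNAi was followed by no call among the 7 desaturase genes, where 0.175% of all genes (22) were called in either direction. With the replicate number as a block within the strain 93 genes were called, none of them a desaturase. The members' log2 fold changes ran from −1.04 for fat-7 to 0.62 for fat-3, and that of fat-7 was −0.0772 on log2(CPM + 1) values. At an unadjusted p under 0.05, 1 member passed, against 5.95% of all genes. This was fat-6, with a log2 fold change of −0.34 (95% interval −0.64 to −0.04, limma, Benjamini-Hochberg adjusted p = 0.731), and its WT groups overlapped because the third skn-1 RNAi library lay within the vector range. With 1 library left out its value ran from −0.49 to −0.19. fat-4 was at 98.1, 101 and 103 CPM on skn-1 RNAi, all below its vector values, with a log2 fold change of −0.23 (95% interval −0.54 to 0.09). Groups that did not overlap, the skn-1 RNAi group lower, were found for 5.42% of all genes. For fat-5 the log2 fold change was −0.61 (95% interval −1.29 to 0.07, limma, Benjamini-Hochberg adjusted p = 0.943), and it ran from −0.96 to −0.27 with 1 library left out.

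In glp-1(ts), no desaturase gene was called between the libraries labelled skn-1 RNAi and vector, where 0.357% of all genes (45) were. With the block within the strain 198 genes were called, again no desaturase. The smallest adjusted p was that of fat-2, whose log2 fold change was 0.45 (95% interval −0.08 to 0.99, limma, Benjamini-Hochberg adjusted p = 0.559). fat-5 was lower by 0.33 on this scale (95% interval −1.01 to 0.35) and fat-6 by 0.02 (95% interval −0.32 to 0.28). Whether the rise of fat-6 between strains needs skn-1 was not tested. Since skn-1 mRNA was not lower in these libraries, the values compare the labelled groups and not animals with and without skn-1 mRNA.

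**Figure D4:**
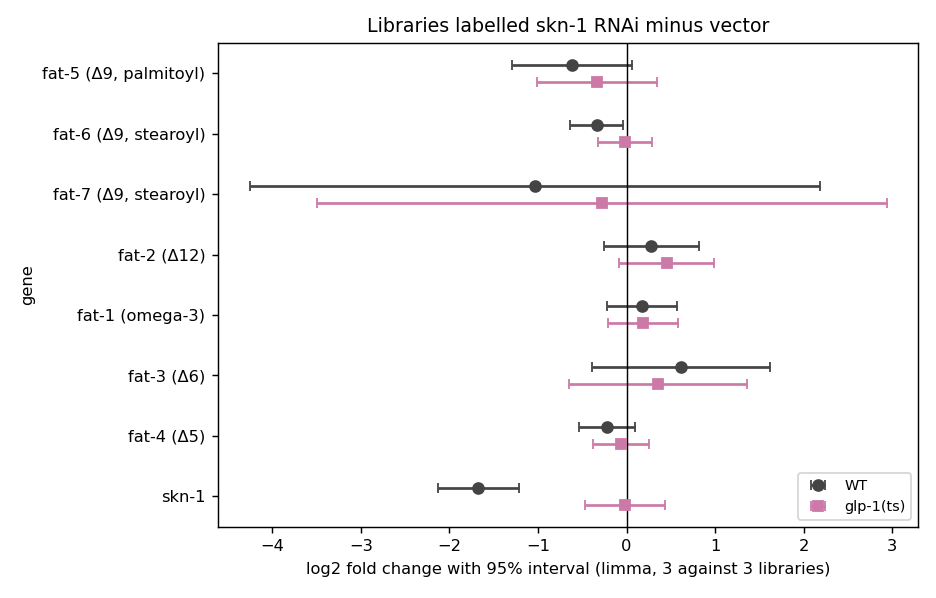
Log2 fold change of libraries labelled skn-1 RNAi against vector (horizontal axis) in WT (circles) and glp-1(ts) (squares), with 95% intervals from limma, for the 7 desaturase genes and skn-1. skn-1 fell by 1.67 in WT and stood at −0.02 in glp-1(ts), and of the members only fat-6 in WT has an interval that leaves out 0.

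The difference of the skn-1 RNAi effects between the strains was tested directly and was called for none of the 12595 genes by limma, with 745 (5.92%) at an unadjusted p under 0.05, and for 1 gene on log2(CPM + 1) values. For the members the smallest adjusted p was that of fat-6, at 0.859 (limma, Benjamini-Hochberg), with a difference of 0.32 (95% interval −0.11 to 0.75). For fat-5 the difference was 0.28 (95% interval −0.68 to 1.24). On log2 CPM the test did not call skn-1 either, whose log2 fold change was −1.67 for WT but −0.02 for glp-1(ts). The lack of calls is therefore no sign of equal effects. For glp-1(ts) the food label did not go with less skn-1 mRNA.

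Replicate numbers pair the 2 foods within a strain, so the foods were also compared pair by pair. The glp-1(ts) pairs rest on the label, as skn-1 mRNA was not lower in that group. fat-5 was lower in the library labelled skn-1 RNAi in all 6 pairs, as were 3.68% of all genes. Its log2 differences were −1.12, −0.60 and −0.12 in the WT pairs and −0.44, −0.28 and −0.27 in the glp-1(ts) pairs. fat-2 was higher in all 6 pairs, with differences of 0.09, 0.36 and 0.38 in the WT pairs and 0.14, 0.42 and 0.80 in the glp-1(ts) pairs, as were 3.60% of all genes. The direction was uniform but the sizes were uneven. With the replicate number within the strain as a block, the adjusted p was 0.131 for fat-5 in WT and 0.0870 for fat-2 in glp-1(ts) (limma, Benjamini-Hochberg), so neither was called.

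Library number moved with fat-7, fat-2 and fat-3. fat-7 was at 1.21 to 8.82 CPM in the 4 libraries numbered 2 and at 0.0492 to 0.810 CPM in the other 8. fat-2 was highest in number 2 within each of the 4 groups, as was 4.70% of all genes. fat-3 and fat-7 were lowest in number 1 within each group, as were 1.44% of all genes, and fat-3 was highest in number 3 within each group, as were 2.55%. Without the 4 libraries numbered 2, an alternative chosen after seeing the data, the 6 members that rose were still called higher on both foods, fat-5 with log2 fold changes of 4.21 and 4.48. fat-3 on skn-1 RNAi food was the nearest to the threshold there, with a limma Benjamini-Hochberg adjusted p of 0.0489.

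The genes whose log2 CPM followed each member most closely over the 12 libraries were found by Pearson's r, which the strain difference dominates for every member but fat-7. fat-5 was most like the ornithine decarboxylase gene odc-1 (r = 0.994) and Y34F4.2 (r = 0.993), and fat-6 was most like W10C8.5 and R186.1 (r = 0.996 each). fat-2 stood next to fbxa-165 (r = 0.973) and to pod-2 (r = 0.971), which encodes acetyl-CoA carboxylase, the enzyme that commits acetyl-CoA to fatty acid synthesis. fat-3 was followed by C27B7.9 (r = 0.980) and the yolk protein gene vit-5 (r = 0.968), both of which were also high in the third WT library on skn-1 RNAi, at 4.20 and 13.05 log2 CPM. However, vit-5 took that same 13.05 in every glp-1(ts) library, and 12.27 or 12.46 in the other WT libraries. Its r thus rests on few distinct values. fat-4 was most like T04B2.5 (r = 0.988) and T01B11.2 (r = 0.986), and fat-1 was most like tlp-1 (r = 0.988) and T20B3.1 (r = 0.973). For fat-7 the closest genes were agmo-1 (r = 0.859) and sop-2 (r = 0.818). With group means removed, the closest genes were Y65B4BR.1 for fat-1 (r = 0.976), col-143 for fat-2 (r = 0.968), C27B7.9 for fat-3 (r = 0.973), C49F5.3 for fat-4 (r = 0.966), H17B01.5 for fat-5 (r = 0.938), acs-7 for fat-6 (r = 0.960) and afd-1 for fat-7 (r = 0.979). These are descriptions over 12 points that share groups and library numbers. Some of the genes named were near the floor: fbxa-165 reached 1 CPM in 5 of the 12 libraries, Y65B4BR.1 in 6, agmo-1 in 3 and H17B01.5 in 1.

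Most other listed genes of the pathway were also called higher in glp-1(ts) on vector, as were 39.4% of all genes. Both genes of saturated fatty acid synthesis rose, pod-2 with a log2 fold change of 0.93 and the fatty acid synthase gene fasn-1 with 0.59. Of 10 genes of chain elongation 9 rose and elo-4 (0.13) did not pass, with a median of 0.94 like that of the desaturases. Examples were the elongase gene elo-2, at 5.11 to 5.63 log2 CPM in WT and 6.58 to 6.74 in glp-1(ts), and elo-5 (1.48) and elo-6 (1.30), which serve branched-chain fatty acids. All 4 measured genes that pass electrons to desaturases rose, led by the cytochrome b5 gene cytb-5.1 (1.46). The 2 sphingolipid desaturases rose too, ttm-5 by 2.17 and F33D4.4 by 0.36 on the log2 scale.

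All 8 genes listed for the use of unsaturated fatty acids rose on vector, and the median of their log2 fold changes was 1.23. The most changed was dgat-2, which encodes a diacylglycerol acyltransferase that makes storage fat, at 3.04, 3.49 and 3.32 log2 CPM in WT and 6.70, 6.55 and 6.32 in glp-1(ts), a 9.44-fold difference (limma, Benjamini-Hochberg adjusted p = 2.65e-08). acs-1, which activates branched-chain fatty acids, rose by 1.83 on the log2 scale. Of these groups, 9 of the 10 elongation genes, 3 of the 4 electron carriers and 7 of the 8 genes of use rose on skn-1 RNAi food, where 41.7% of all genes were called higher.

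Of 14 known regulators of desaturase genes, 8 rose, 2 fell and 4 did not pass on vector, where 39.4% of all genes were called higher and 38.0% lower, with a median log2 fold change of 0.48. sbp-1, the SREBP homolog that drives lipogenic genes, was at 3.75, 3.87 and 3.89 log2 CPM in WT and at 6.43, 6.18 and 6.13 in glp-1(ts), a 5.30-fold rise (limma, Benjamini-Hochberg adjusted p = 2.76e-08). nhr-80, the nuclear receptor that acts on fat-6 in worms without germline stem cells, rose 4.30-fold, from 2.48 to 2.66 log2 CPM in WT to 4.44 to 4.87 in glp-1(ts). nhr-49, a nuclear receptor that promotes Δ9 desaturase expression, rose 1.43-fold. daf-12, the receptor for dafachronic acids, rose 4.34-fold. nhr-66, a partner of NHR-49, fell by 1.22 and the elongation factor gene tcer-1 fell by 0.85 on the log2 scale. The mediator subunit gene mdt-15 (0.26) was not called on vector and was called higher on skn-1 RNAi food (0.46), a difference between foods that was itself not called. No gene of any of these lists was called in either skn-1 RNAi comparison.

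**Figure D5:**
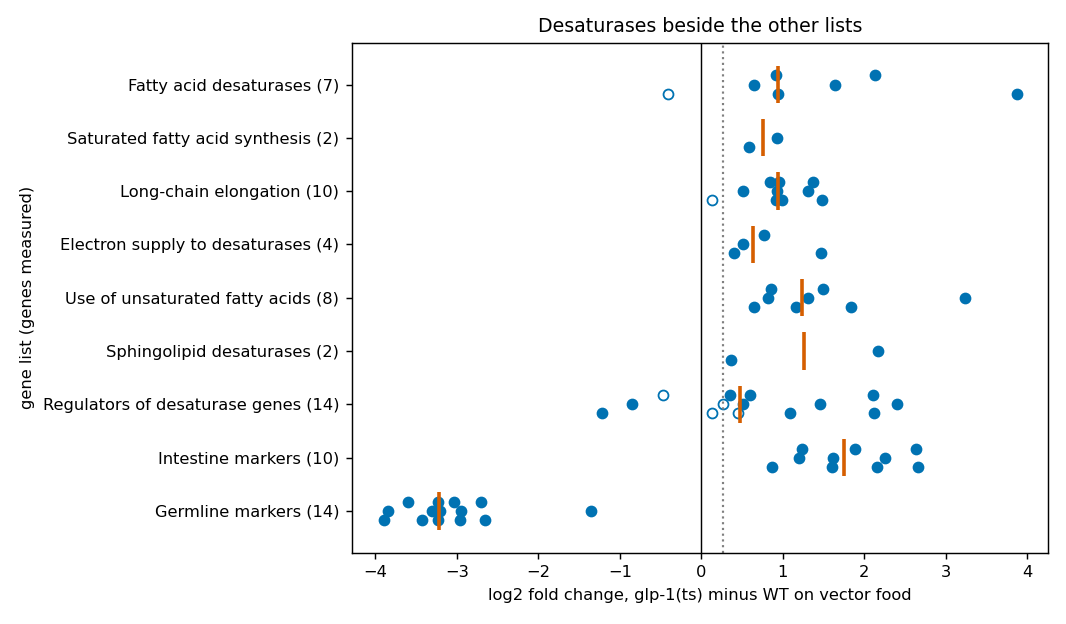
Log2 fold change of glp-1(ts) against WT on vector (horizontal axis) for each gene of the desaturase group, of the other pathway lists and of the intestine and germline markers; filled points passed the test, open points did not, bars are list medians and the dotted line is the median of all genes (0.27). The desaturase median is 0.94, below the intestine markers' 1.75, and the germline markers lie around −3.22.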

How the data were processed

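RNA from whole day 1 adults was enriched for poly(A) and sequenced as single reads. Per the labels and the study's methods, the authors aligned reads with STAR to WBcel235, counted them per gene with featureCounts (Subread), kept genes with at least 1 CPM in at least 2 samples and deposited quantile-normalized log2 CPM values made with voom and limma. The deposited comparison columns (log2 fold changes, t statistics, p-values and FDR) and mean columns were not used. Here limma 3.58.1 in R 4.3.3 was fitted to the deposited log2 values as 4 group means over all 12 libraries, with empirical Bayes moderation and a mean-variance trend (8 residual degrees of freedom), and p-values were adjusted by Benjamini-Hochberg over all 12595 genes. A gene was called at an adjusted p under 0.05. The fit was tested on simulated data with independent noise between libraries, unlike the paired libraries here. Nothing in this report rests on that test. Exon lengths and coordinates came from Ensembl release 115 of WBcel235. CPM values are 2 raised to the deposited value.

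Named were all 7 members, the 2 genes most like each by Pearson's r over the 12 libraries and the 1 most like it with group means removed, and genes of fixed pathway and tissue lists. The members and lists were chosen with earlier results of these data known. Of 12 elongation genes 10 were in the matrix, and of 5 electron carriers 4. The alternatives were no trend, vooma precision weights, a minimum mean of 1 or 4 CPM per gene, log2(CPM + 1), median centring, only the groups compared, a replicate block and each library left out. Between the foods within a strain, deviations from group means of same-numbered libraries correlated over genes at 0.11, 0.31 and 0.25 in WT and at 0.15, 0.34 and 0.23 in glp-1(ts), so the numbers from the labels were taken to pair them. With the block within the strain, 93 genes were called for skn-1 RNAi in WT in place of 22, and 198 in glp-1(ts) in place of 45. Marker lists not described above gave these results on vector: of 7 eggshell and oocyte genes 5 fell and 1 rose, and of 4 spermatheca and sheath genes 3 rose.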

Additional observations from a re-analysis of the deposited data

How the results depend on the processing

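The 6 desaturase calls between strains held on both foods under each other setting of the fit and with each library left out. fat-5 ranged from 3.79 to 3.88 (log2 fold change) over these settings on vector, and from 3.56 to 4.21 with a library left out. No desaturase gene was called for skn-1 RNAi in either strain under any of them, the replicate block included. The replicate block changed no call of a desaturase gene. The number of genes called did move. For skn-1 RNAi in WT it was 22, and it was 7 with vooma weights, 13 with a mean of at least 4 CPM, 59 with a replicate block, 93 with a replicate block within strain and 4 with only the groups compared. In glp-1(ts) it was 45, and it was 12 with no trend, 77 on log2(CPM + 1), 99 with a replicate block, 198 with a replicate block within strain and 20 with only the groups compared. The difference of the skn-1 RNAi effects gave 1 call on log2(CPM + 1). With a library left out, the count ran from 0 (without WT vector replicate 1) to 31 in WT and from 9 (without glp-1(ts) skn-1 RNAi replicate 1) to 63 in glp-1(ts). In WT it was also 5 without WT vector replicate 3, 10 without WT skn-1 RNAi replicate 3, 13 without glp-1(ts) vector replicate 1 and 12 without glp-1(ts) skn-1 RNAi replicate 3. In glp-1(ts) it fell to 26 or fewer without any 1 of the 6 glp-1(ts) libraries other than vector replicate 2, of the WT vector libraries or of WT skn-1 RNAi replicate 1. Without WT vector replicate 1 the fall of skn-1 in WT missed the threshold (limma, Benjamini-Hochberg adjusted p = 0.0579), with its log2 fold change between −1.86 and −1.53 over all leave-outs. The cause of these shifts was not tested.

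Small log2 fold changes that were not called crossed 0 with a library left out. In the skn-1 RNAi comparison in WT, fat-2 ran from −0.0044 to 0.52, fat-3 from −0.0572 to 1.22 and fat-7 from −3.01 to 0.74. In glp-1(ts), fat-1 ran from −8.91e-05 to 0.35, fat-4 from −0.22 to 0.0364, fat-6 from −0.10 to 0.0316, fat-7 from −0.69 to 0.52 and skn-1 from −0.25 to 0.19. Between strains, fat-7 ran from −1.35 to 0.79 on vector and from −1.43 to 2.31 on skn-1 RNAi food, where log2(CPM + 1) gave −0.47. The difference of effects for fat-5 ran from −0.0616 to 0.63. The summed level on skn-1 RNAi food, a log2 difference of 1.30, was 1.59 as a mean of log2 values.

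Alternatives chosen after seeing the data had more effect. Without the 4 libraries numbered 2, 2 genes were called for skn-1 RNAi in WT and 7 in glp-1(ts), where fat-6 was 0.0233 and fat-7 0.15. Centred on intestine markers, 1 desaturase was called higher and 3 lower on each food. Of all genes, 269 were called higher and 7795 lower on vector, and 347 higher and 7780 lower on skn-1 RNAi food. On vector fat-1 was −1.17, fat-2 −0.88, fat-4 −0.89 and fat-6 −0.18, and on skn-1 RNAi food fat-1 was −1.28, fat-2 −0.82, fat-3 −0.0710, fat-4 −0.85 and fat-7 −1.59, with 17 genes called for skn-1 RNAi in glp-1(ts). Centred on muscle markers, 1 was called higher on vector, where fat-1 was −0.59, fat-2 −0.29 and fat-4 −0.31. Of all genes, 1360 were called higher and 6576 lower there. On skn-1 RNAi food 2 desaturases were called higher and 1 lower, where 1429 of all genes were called higher and 6728 lower. There fat-1 was at −0.73, fat-2 at −0.27, fat-4 at −0.30 and fat-7 at −1.04. For skn-1 RNAi in glp-1(ts), 19 genes were called on the muscle-centred scale. Centred on hypodermis markers, the desaturase calls between strains were unchanged on both foods, with 5396 of all genes called higher on vector and 6052 on skn-1 RNAi food. On that scale 37 genes were called for skn-1 RNAi in WT and 23 in glp-1(ts), where fat-4 was 0.0191, fat-6 0.0629 and skn-1 0.0655. Such centring subtracts the mean marker level, which by construction turns genes that rose by less than the markers. Depth is unknown, and values under 1 CPM, such as most of fat-7, carry little information.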

Other observations

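Library number also ran through genes outside the desaturases, and the genes named here were chosen after their values were seen. The branched-chain genes elo-5, elo-6 and acs-1 were lowest in the library numbered 2 within each of the 4 groups, as were 6.01% of all genes. For elo-5 the libraries numbered 1, 2 and 3 gave 5.64, 5.13 and 5.87 log2 CPM in WT on vector and 7.37, 6.56 and 7.17 in glp-1(ts) on vector. For acs-1 they gave 6.01, 5.18 and 6.30 in WT and 7.92, 7.16 and 7.92 in glp-1(ts) on vector. fat-2 and fat-7 were highest in number 2 in the same groups.

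All 4 libraries numbered 2 lay above all other 8 for 29 genes (0.230% of 12595), against 3 genes for number 1 and 4 for number 3. fat-7 was among them, as were lpin-1, which encodes the phosphatidate phosphatase lipin, the mevalonate kinase gene mvk-1, dhcr-7 and the autophagy gene atg-18.

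Deviations from group means of fat-2 and fat-7 correlated at r = 0.880 over the 12 libraries, and those of fat-2 and fat-5 at r = 0.855. For the neighbours fat-3 and fat-4 the value was 0.208, and for fat-1 and fat-4 it was 0.849. These points share library numbers and are given as a description.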
